A study of Mus musculus with 12 samples.

Results

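Cdc45, Mcm2, Ccne1, Cdkn1b, Bax and Bbc3 are 6 genes that act at the entry into DNA synthesis or in the mitochondrial route to cell death, and their RNA levels were measured here in cultured mouse bone marrow mesenchymal stem cells (BMSCs). They were taken by symbol from a table of 658 genes, and all 6 were found. The treated group was 6 libraries of wild-type BMSCs in osteogenic induction medium with α-asarone, a phenylpropanoid of Acorus oils that the sample labels spell α-Asaronel. The other group was 6 libraries of wild-type BMSCs in the same medium without it. Both groups therefore shared the dexamethasone, β-glycerophosphate and ascorbic acid of that medium. The sources used here do not give the dose or duration of α-asarone. The labels call the replicates biological without naming animals or cultures, so a p-value reflects how far these libraries scatter, which may be technical. On GRCm38 (GENCODE M21) Cdc45 lies at chr16:18780447-18811987, Mcm2 at chr6:88883474-88898780, Ccne1 at chr7:38097984-38107534 and Bax at chr7:45461697-45466898, all on the minus strand. Cdkn1b lies at chr6:134920401-134925513 and Bbc3 at chr7:16308393-16318205, both on the plus strand. Values are those of the whole protein-coding gene.

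A cell licenses its replication origins by loading the MCM helicase onto DNA in G1 and fires them in S phase, when CDC45 and the GINS complex join the helicase. Cyclin E, with its kinase partner CDK2, drives that transition, and the inhibitor p27, the product of Cdkn1b, holds cyclin E complexes back. When p53 is active it raises the transcription of Bbc3 and Bax. PUMA, the product of Bbc3, neutralises the survival proteins of the BCL2 family, and BAX then permeabilises the outer mitochondrial membrane. In mesenchymal cultures that are made to differentiate into bone cells, proliferation is known to give way to matrix production.

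The promoters of the genes that act at the start of DNA synthesis are shown because textbook control of this step runs through E2F factors, which bind close to start sites. The sequences are RefSeq windows of GRCm38.p6, 300 bases that start upstream of the start site and end just after it, read 5′ to 3′ on the gene's strand. They cover chr16:18811923-18812222 for Cdc45, chr6:88898731-88899030 for Mcm2 and chr7:38107441-38107740 for Ccne1, all on the minus strand, and capitals mark matches to CCAAT or GGGCGG on either strand.
Cdc45: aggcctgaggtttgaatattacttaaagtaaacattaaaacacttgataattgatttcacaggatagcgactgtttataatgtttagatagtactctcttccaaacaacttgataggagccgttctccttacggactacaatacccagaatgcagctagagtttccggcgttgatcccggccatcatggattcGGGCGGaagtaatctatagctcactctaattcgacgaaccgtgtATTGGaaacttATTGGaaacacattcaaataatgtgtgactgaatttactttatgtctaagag
Mcm2: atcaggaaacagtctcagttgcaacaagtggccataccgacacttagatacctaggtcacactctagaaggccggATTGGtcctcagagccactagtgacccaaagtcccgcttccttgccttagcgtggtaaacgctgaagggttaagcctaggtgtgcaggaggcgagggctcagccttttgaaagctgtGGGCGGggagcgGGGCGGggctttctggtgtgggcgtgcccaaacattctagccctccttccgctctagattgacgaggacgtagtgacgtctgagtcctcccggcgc
Ccne1: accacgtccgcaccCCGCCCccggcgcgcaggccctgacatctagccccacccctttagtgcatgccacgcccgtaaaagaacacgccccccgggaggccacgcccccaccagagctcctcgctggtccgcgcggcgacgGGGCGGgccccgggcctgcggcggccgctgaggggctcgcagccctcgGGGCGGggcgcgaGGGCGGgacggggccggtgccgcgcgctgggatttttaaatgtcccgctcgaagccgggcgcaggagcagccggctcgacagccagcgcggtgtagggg

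The 3 windows differed in composition, with 38.7% G and C in Cdc45, 57.3% in Mcm2 and 76% in Ccne1, where the median of 32851 promoter windows of the same length was 52.7%. CCAAT was matched 2 times in Cdc45, 1 time in Mcm2 and not in Ccne1, and 37.4% of all windows held it. GGGCGG was matched 1 time in Cdc45, 2 times in Mcm2 and 4 times in Ccne1, and 35.7% of all windows held it. The E2F letters TTTCCCGC, TTTCGCGC, TTTGCCGC and TTTGGCGC were in none of the windows of the 6 genes, against 2.26% of all windows. The p53 site was sought as a close pair of RRRCWWGYYY (R is A or G, W is A or T, Y is C or T), with no mismatch allowed. That strict pattern was in none of these windows either, against 0.0731% of all windows. A match describes these letters and shows no binding. The lack of an exact match does not show that an E2F or p53 site is absent.

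None of the 6 genes passed the test between cultures with and without α-asarone. The test was edgeR's quasi-likelihood test on rounded estimated counts, with p-values adjusted over all 512 genes that had at least 1 TPM (a level per transcript length, scaled to the same total in each library) in at least 6 libraries, and a gene was called at an adjusted p under 0.05. All 6 genes met that filter. Of the 512 genes, 155 were called, or 30.3%, with 12.9% called higher and 17.4% called lower. Of these calls 42.6% were rises, and 67.2% were when libraries were scaled by their totals over the table. With that scaling the median log2 fold change of all tested genes was 0.044, against 0.00069 in the main fit. Before adjustment 39.8% of all genes had a p under 0.05, and of the 6 genes only Ccne1 did. The TPM values of the groups overlapped for all 6 genes, while 14.3% of the tested genes had no overlap. With limma on log2(TPM + 1), which called 22.9% of the genes, Ccne1 passed and the other 5 did not. The exact permutation test (2-sided, log2(TPM + 1)), which called 22.3% of the genes after adjustment over all of them, called none of the 6.

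Total estimated counts over the table ran from 914197 to 1224256 with α-asarone and from 843595 to 1173845 in controls. Control replicate 2 had the lowest total. The table is a part of each transcriptome, so these totals are not library depths. Mean estimated counts per library were 86.5 for Cdc45, 116 for Bbc3, 166 for Ccne1, 457 for Mcm2, 1091 for Bax and 1235 for Cdkn1b, and log2 fold changes had a standard error (SE) of 0.12 for Cdc45 but 0.04 for Cdkn1b.

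By mean TPM over the 12 libraries the order of the levels was Bax at 135, Cdkn1b at 49.5, Mcm2 at 15.5, Ccne1 at 10.1, Bbc3 at 8.22 and Cdc45 at 4.81. Bax stood at rank 60 and Cdc45 at rank 457 of the 512 tested genes. Ccne1 and Bbc3 were neighbours in this order whose ranges did not overlap with α-asarone but did in controls. The ranges of all other neighbours were apart in both groups.

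**Figure D1:**
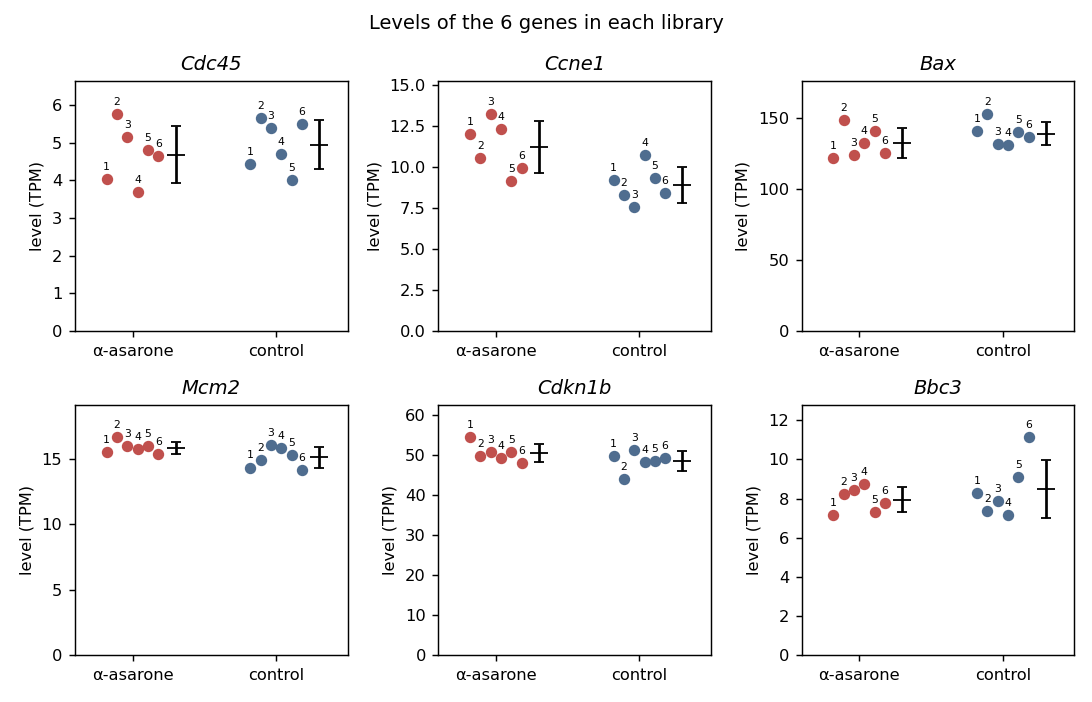
Level in TPM of each of the 6 genes (vertical axes from 0) in the 6 α-asarone libraries (red, left) and the 6 control libraries (blue, right), with the replicate number above each point and the mean ± SD in black. The groups overlap in all 6 panels, and 3 of the 6 Ccne1 points with α-asarone lie above every control.

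Neither replication gene passed the test. Mcm2, which encodes a subunit of the MCM helicase, had a lowest, median and highest level of 15.4, 15.8 and 16.6 TPM with α-asarone, against 14.2, 15.1 and 16.1 TPM in controls. All 6 α-asarone libraries lay above the control median and 4 controls lay below every α-asarone library, but the ranges overlapped. On counts edgeR gave 0.07 ± 0.05 as log2 fold change (SE, adjusted p = 0.29), with a 95% interval from −2.04% to 12.6%. The spread of Mcm2 was small, at 15.9 ± 0.456 TPM with α-asarone, against 15.1 ± 0.782 TPM in controls (SD, n = 6 each). The exact permutation p was 0.0779, and 0.21 after adjustment over all tested genes.

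Cdc45, whose product completes the active replicative helicase, had a lowest, median and highest level of 3.69, 4.72 and 5.77 TPM with α-asarone, against 4.02, 5.04 and 5.64 TPM in controls. Both the highest and the lowest value of all 12 libraries were α-asarone values, so the control range lay inside the α-asarone range. The edgeR estimate of its log2 fold change, −0.08 ± 0.12 (SE, adjusted p = 0.63), had a 95% interval from −20.5% to 12.2%. Its counts ran from 55 to 116 per library. With each library left out in turn the estimate ran from −0.16, without α-asarone replicate 2, to −0.02, without α-asarone replicate 4. The level of Cdc45 was 29.4% ± 4.08 of that of Mcm2 with α-asarone and 32.9% ± 4.87 in controls (SD, n = 6 each), both per transcript length. Cdc45 overlaps Ufd1 on the opposite strand by 209 bases. The sources used here do not say whether the counting used strand, so reads of that stretch may belong to either gene.

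Ccne1 was the gene of the 6 with the largest change in the edgeR fit, and whether it was called differed between tests, scalings and sets of libraries. Its product, cyclin E1, is the regulatory subunit that activates CDK2 at the G1/S boundary. Its lowest, median and highest levels were 9.16, 11.3 and 13.2 TPM with α-asarone, against 7.54, 8.81 and 10.7 TPM in controls. All 6 α-asarone libraries lay above the control median, 3 lay above every control, and 3 controls lay below every α-asarone library. The mean was 11.2 ± 1.57 TPM with α-asarone, against 8.92 ± 1.098 TPM in controls (SD, n = 6 each).

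On counts the difference was smaller. Ccne1 had 167 ± 12.2 normalised CPM with α-asarone and 147 ± 19.7 in controls (SD, n = 6 each, CPM being estimated counts scaled by TMM to the total of the tested genes). The edgeR log2 fold change was 0.19 ± 0.09 (SE, unadjusted p = 0.0437, adjusted p = 0.11), or 13.8% higher with a 95% interval from 0.393% to 28.9%. This size was at or above that of 80.3% of the tested genes. On log2(TPM + 1), limma gave a log2 fold change of 0.30 with an adjusted p of 0.024. The exact permutation p on the same scale was 0.0216, and 0.082 after adjustment over all tested genes. Control replicate 4, at 10.7 TPM and 179 normalised CPM, was the highest control by both measures, and without it edgeR gave a log2 fold change of 0.25 (adjusted p = 0.028). Without control replicate 3, the lowest by both measures, it was 0.14 (adjusted p = 0.27).

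TPM divides an estimated count by a transcript length that can differ between libraries when the quantifier shifts reads between transcripts. The length implied by count and TPM was therefore computed for each gene and library, relative to the median control, a measure added after the values were seen. For Ccne1 it was 87.3%, 83.5% and 74.9% of the control median in α-asarone replicates 1, 3 and 4, and 100% in the other 3 α-asarone libraries. It was 97.1% to 100% in the controls. The 3 α-asarone libraries with the shorter implied length were the 3 with the highest TPM, at 12.001, 13.2 and 12.3. By normalised counts only replicate 3 of these, at 185, lay above every control. The difference in implied length between the groups did not pass the exact permutation test (p = 0.171, adjusted p = 0.78 over 512 genes). GENCODE M21 lists 5 Ccne1 transcripts, 2 of them coding, with spliced lengths of 608 and 2000 bases. When edgeR was run with counts divided by the implied lengths, the log2 fold change was 0.32 (adjusted p = 0.025). Dividing by these lengths gives back the TPM scale. Its closeness to the limma value is therefore built in and is no separate support.

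**Figure D2:**
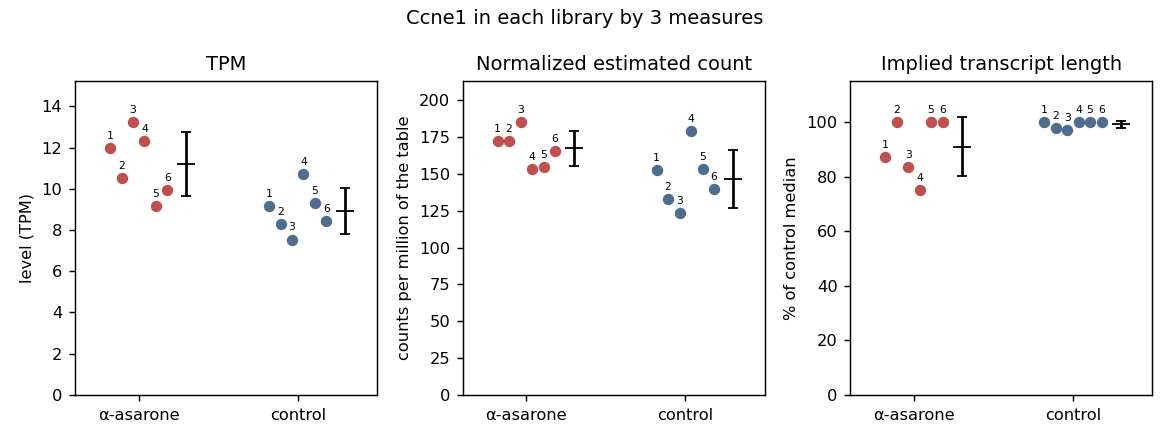
Ccne1 in each library as TPM, as TMM-normalised CPM of the tested genes, and as implied transcript length in percent of the control median (vertical axes from 0, left to right), with α-asarone in red, controls in blue, replicate numbers above the points and the mean ± SD in black. Replicates 1, 3 and 4 with α-asarone have the highest TPM and the shortest implied length.

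Cdkn1b, the gene of the cyclin-dependent kinase inhibitor p27, had a lowest, median and highest level of 47.9, 50.2 and 54.3 TPM with α-asarone, against 43.9, 48.9 and 51.2 TPM in controls. The groups overlapped over most of their ranges, with 1 α-asarone library above every control and 1 control below every α-asarone library. The edgeR estimate of 0.06 ± 0.04 on the log2 scale (SE, adjusted p = 0.27) had a 95% interval from −1.48% to 9.78%. Scaled by totals over the table it was 0.10 (adjusted p = 0.048), with the median of all tested genes at 0.044. Without control replicate 2, the lowest control, the log2 fold change was 0.03 (adjusted p = 0.54), and without α-asarone replicate 1, the highest of its group, it was also 0.03 (adjusted p = 0.53). Per transcript length, the level of Ccne1 was 22.2% ± 2.95 of that of its inhibitor with α-asarone and 18.5% ± 2.51 in controls (SD, n = 6 each). These ratios overlapped, at 18.1% to 26.1% with α-asarone and 14.7% to 22.3% in controls.

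The death genes of the p53 route were a little lower in their means with α-asarone, and neither passed the test. Bax, which encodes the pore-forming effector, had a lowest, median and highest level of 122, 129 and 148 TPM with α-asarone, against 131, 138 and 153 TPM in controls. The 3 lowest α-asarone libraries lay below every control, and the highest control lay above every α-asarone library. The edgeR log2 fold change of −0.07 ± 0.04 (SE, adjusted p = 0.22) had a 95% interval from −10.2% to 1.102%, and with each library left out in turn it ran from −0.10 to −0.04. Estimated counts of Bax were not whole in 4 libraries. Gm45808 overlaps Bax by 915 bases on the same strand, so reads may have been shared between them.

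Bbc3, which encodes the p53-induced killer protein PUMA, had a lowest, median and highest level of 7.15, 8.01 and 8.73 TPM with α-asarone, against 7.16, 8.10 and 11.1 TPM in controls. The α-asarone range lay almost inside the control range, and the highest control, replicate 6, stood apart from the next at 9.10 TPM. That library had 130 estimated counts, within the 86 to 144 of the controls, and its implied Bbc3 length was 77.9% of the control median, the shortest of the 12. For Bbc3 the edgeR log2 fold change was −0.06 ± 0.10 (SE, adjusted p = 0.66) and its 95% interval ran from −16.5% to 10.1%. It was −0.12 without α-asarone replicate 4 and −0.02 without control replicate 5, the ends of the range with each library left out in turn. Per transcript length, Bbc3 stood at 6.04% ± 0.618 of Bax with α-asarone and at 6.14% ± 1.13 in controls (SD, n = 6 each).

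The other tested genes of 9 lists drawn up for these pathways did not pass the test either. The lists, with 341 genes of replication, cyclins, kinase inhibitors, mitosis, the p53 network, the BCL2 family, caspases and DNA repair, had 20 genes in the table, of which 19 were tested, 13 of them beside the 6 genes above. With edgeR none of the 13 passed before or after adjustment, where 39.8% and 30.3% of all tested genes did. Of the 13, 5 had a positive log2 fold change, where 51.2% of all tested genes did. The median of the 13 was −0.02, against 0.00 over all tested genes. Ccnd2, the gene of the G1 cyclin D2, was the most abundant at 234 ± 2.90 TPM with α-asarone, against 237 ± 6.603 TPM in controls. Dbf4, which encodes the activator of the origin-firing kinase CDC7, stood at 15.2 ± 0.513 TPM with α-asarone, against 15.5 ± 1.82 TPM in controls.

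Genes of later steps had similar values. Rpa1, a subunit of the single-strand DNA binding complex, stood at 36.1 ± 1.29 TPM with α-asarone, against 37.5 ± 2.07 TPM in controls (log2 fold change −0.06, edgeR adjusted p = 0.18). Foxm1, a transcription factor of G2 and mitotic genes, stood at 6.28 ± 0.322 TPM with α-asarone, against 6.49 ± 0.437 TPM in controls. Ube2c, the ubiquitin-conjugating enzyme of the anaphase-promoting complex, stood at 15.6 ± 2.05 TPM with α-asarone, against 15.7 ± 2.50 TPM in controls. Kif20a, a kinesin of cytokinesis, stood at 8.06 ± 0.817 TPM with α-asarone, against 8.26 ± 0.884 TPM in controls. In the cell death and p53 lists Tsc2, a negative regulator of mTORC1, and the BCL2-like gene Bcl2l12 had log2 fold changes of 0.00 and 0.08. Fasl, the gene of the Fas ligand, was listed at up to 0.054 TPM and was not tested.

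**Figure D3:**
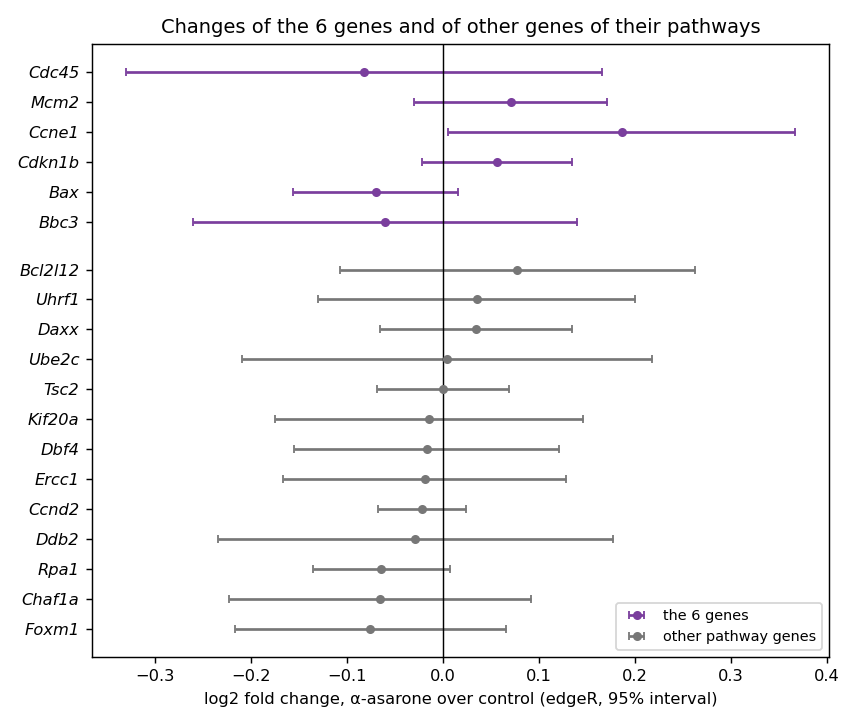
Log2 fold change of α-asarone over control with its 95% interval (horizontal axis, edgeR) for the 6 genes (purple, top) and the 13 other tested genes of their pathways (grey, below). The interval of Ccne1 starts just above 0 and all others include 0.

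The deposited annotation gave further lists, which share several genes with each other, with the 6 genes and with the lists above. Their calls stand against 12.9% of all tested genes called higher and 17.4% called lower. In the KEGG cell cycle pathway 1 of 7 genes rose and none fell. It was Tgfb1, the gene of the cytokine TGF-β1, at 183 ± 6.11 TPM with α-asarone, against 164 ± 3.24 TPM in controls (log2 fold change 0.17, edgeR adjusted p = 1.36e-05). None of 6 genes of the KEGG p53 signaling pathway, 5 tested genes of KEGG apoptosis, 2 of KEGG DNA replication and 7 of the GO term DNA replication passed. Of these, 3, 2, 1 and 2 were among the 6 genes of this report. All genes of the KEGG p53 and KEGG DNA replication lists were already counted above, so these lists add no separate support. Of 4 genes of the GO term for the G1/S transition 1 rose, Acvr1b, an activin receptor gene, at 19.6 ± 0.9748 TPM with α-asarone, against 17.3 ± 0.745 TPM in controls.

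The broader GO terms had calls in both directions, as had all tested genes, at 12.9% higher and 17.4% lower. Among 24 tested genes of the GO term cell cycle 1 rose, Snx9, a sorting nexin gene (log2 fold change 0.11, edgeR adjusted p = 0.0053), 1 fell, the Golgi matrix gene Golga2 (−0.09, adjusted p = 0.023), and the median log2 fold change was 0.00. The same genes were the calls among 10 tested genes of the GO term cell division. Among 39 tested genes of the GO term apoptotic process 7 rose and 4 fell, and the median was 0.02, where 12.9% of all tested genes rose and 17.4% fell. The largest changes there were of Peg3, an imprinted zinc finger gene, with a log2 fold change of −0.60 (edgeR adjusted p = 2.68e-12), of Prkd1, a protein kinase gene, with −0.40 (adjusted p = 0.0013), of Tbx2, a T-box factor gene, with 0.27 (adjusted p = 0.03) and of Sox9, the chondrocyte factor gene, with −0.26 (adjusted p = 0.0089). In the GO term DNA repair 1 of 16 genes rose, Poldip2 (0.11), and 2 fell, the kinase gene Dyrk1b (−0.25) and Hltf (−0.11), which encodes a helicase-like factor. In the GO term cellular senescence 1 of 3 rose, Tbx2, and 1 fell, the chaperone gene Calr.

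The labels call the cells BMSCs, and most of their defining markers were not analysed here. Markers of some other cell types were present, and several moved with α-asarone. Of 19 stromal markers the table held Col1a1, which fell to 1304 ± 78.8 TPM with α-asarone, against 1852 ± 141 TPM in controls (log2 fold change −0.50, edgeR adjusted p = 1.79e-11). Of 21 myeloid markers it held 4, of which Cfp and Spi1 rose, Itgb2 fell and Clec10a, at 114 ± 13.2 TPM with α-asarone, against 103 ± 4.17 TPM in controls, did not pass. Their summed level was 967 to 1123 TPM with α-asarone, against 834 to 923 TPM in controls. Of 9 osteoclast markers the table held only Acp5, which fell to 29.8 ± 5.07 TPM with α-asarone, against 66.6 ± 7.57 TPM in controls (log2 fold change −1.14, adjusted p = 5.21e-13). Of 11 adipocyte markers 5 were tested and 4 rose, where 12.9% of all tested genes rose. Pparg did not pass, at 40.2 ± 3.26 TPM with α-asarone, against 41.7 ± 1.98 TPM in controls (log2 fold change −0.05, edgeR adjusted p = 0.43). Sums of the 5 were 423 to 538 TPM with α-asarone, against 361 to 418 TPM in controls. Within them Cd36 alone stood at 366 ± 38.8 TPM with α-asarone, against 308 ± 22.7 TPM in controls. Of the endothelial markers Ramp2 rose to 37.3 ± 2.98 TPM with α-asarone, against 11.8 ± 2.31 TPM in controls, while Vwf and Esam lay below the filter. The lymphocyte markers Vpreb3 and Cd3g were at 0 in every library and Cd79a reached at most 0.099 TPM. In bulk RNA, fewer cells of a type and less RNA per cell cannot be told apart, and the part of these cell types in the levels of the 6 genes was not tested.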

How the data were processed

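Poly(A) RNA of 12 BMSC libraries, 6 with α-asarone and 6 without, was sequenced. The authors deposited 1 table of TPM values and estimated counts for each gene in each library, per the file headers. Estimated counts as deposited were not whole for 7.45% to 9.57% of the values of a library. The submitters' processing notes name GRCm38 and mm10, and the sources used here do not name the quantifier. The 658 genes analysed here held 5.36% to 5.67% of the TPM total of a library, and all 658 identifiers matched GENCODE M21, which gave coordinates on GRCm38.

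Counts were rounded and tested with edgeR 4.0.16 in R 4.3.3 (TMM, glmQLFit, glmQLFTest, no covariate, all 12 libraries) on the 512 genes with at least 1 TPM in at least 6 libraries, with Benjamini-Hochberg adjustment over all of them. Alternatives were DESeq2 1.42.0, limma 3.58.1 on log2(TPM + pseudocount), other scalings and filters, the replicate number as a block and leaving out each library. Exact permutation tests ran over 924 arrangements, where the smallest p is 0.0022. Scripts were tested on simulated data. No pair of libraries of the same group agreed within sampling noise (chi-square per degree of freedom 2.24 to 11.2 in 30 pairs). The standard error of each fold change therefore holds scatter between libraries as well as counting error. Named were the 6 genes, up to 4 called genes with the largest change for each list or annotation term or else up to 2 with the highest TPM, up to 3 for each marker list, and 2 genes most like each of the 6. Not every gene that this rule allows is described, and 1 annotation list is not reported here. Foxm1, Fasl, Clec10a, Vwf, Esam and the lymphocyte markers were added after their values were seen. The 6 genes and the lists were chosen with earlier results of these data known.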

Additional observations from a re-analysis of the deposited data

Results flagged for a closer look

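In 26 groups of 6 values (TPM and estimated count of each gene and the table total, in each group of libraries) the highest and lowest value were set against the nearest other, a comparison by which chance sets apart about 1.3 groups, and 3 stood apart. All 3 were of control replicate 2, and they are not independent, since the counts of a library scale with its total. Its total estimated count over the table was 843595, where the other controls ran from 1068547 to 1173845. Its Cdkn1b count was 871, where the other controls ran from 1200 to 1389, and its Bax count was 975.91, where the others ran from 1132.94 to 1199. Its TPM values of the 6 genes were not set apart in this way. Without this library the edgeR log2 fold changes were 0.03 for Cdkn1b (adjusted p = 0.54) and −0.05 for Bax (adjusted p = 0.42).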

How the results depend on the processing

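Over 24 alternatives each, including 1 chosen after seeing the data, the log2 fold changes of the 6 genes kept their sign. Bax, Bbc3, Cdc45 and Mcm2 passed under none of them. Cdkn1b passed with table totals, at 0.1002 (adjusted p = 0.048). In that setting the median log2 fold change of all tested genes was 0.044, against 0.00069 in the main fit. Ccne1 passed under 6 alternatives, at 0.23 with table totals, 0.2955, 0.3219 and 0.2167 with limma on log2(TPM + 1), log2(TPM + 0.1) and log2(TPM + 5), 0.3155 with counts divided by the count to TPM ratio, the setting chosen after seeing the data, and without control replicate 4. With each library left out in turn its log2 fold change ran from 0.1372 to 0.2531, with adjusted p values from 0.028 to 0.27. DESeq2 called 160 genes and none of the 6. The number of genes called was 116 to 189 against 155, and 138 to 152 with each library left out. The exact permutation test of the 6 genes gave no call with a pseudocount of 0.1 or with any library left out, after adjustment over all genes. Same-numbered libraries had correlations of −0.038 to 0.143, with 2 of 6 over 0.1 and 2 of 6 best with their own number, so the numbers were not taken as pairs. With the replicate block 168 genes were called, none of the 6 among them, and Ccne1 had a log2 fold change of 0.19 (adjusted p = 0.12). Of the 15 correlations between the genes, 4 changed sign with TMM-normalised counts, to 0.1983 for Cdc45 and Cdkn1b, −0.3946 for Cdc45 and Bbc3, −0.1336 for Ccne1 and Bbc3 and −0.2518 for Cdkn1b and Bbc3. The settings that use TPM or its lengths carry the shorter implied length of Ccne1 in α-asarone replicates 1, 3 and 4, and the cause of the other changes was not tested.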

Other observations

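No pair of the 6 genes passed a test of joint variation from library to library. Over the 12 libraries, with each group's mean taken out, 15 pairs were compared by permutation within groups. The lowest p was that of Cdkn1b and Bax, with Pearson's r = −0.52 (permutation p = 0.0923, adjusted p = 0.89) and Spearman's rho = −0.41 (permutation p = 0.201, adjusted p = 0.97). Here r was −0.10 without the 2 libraries farthest from the median Cdkn1b level. With TMM-normalised counts r was −0.51 (permutation p = 0.106, adjusted p = 0.83), and −0.58 without the 2 libraries farthest by that measure. Mcm2 and Cdc45, which act in 1 complex, had r = 0.21 (permutation p = 0.50, adjusted p = 0.97) and rho = 0.08 (permutation p = 0.80, adjusted p = 0.97), and r was 0.34 without the 2 libraries farthest from the median Cdc45 level.

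The tested genes whose levels followed each of the 6 most closely over the 12 libraries, by r of log2(TPM + 1) with group means taken out, are given as a description, since each was picked as the highest of all tested genes, which share libraries and depth. For Ccne1 they were Tulp3 (r = 0.87, rho = 0.81) and Clcn4 (r = 0.81, rho = 0.73). For Bax they were Fcgrt, the neonatal Fc receptor gene (r = 0.86, rho = 0.77), and Cfp (r = 0.84, rho = 0.66), which is 1 of the listed myeloid markers. For Mcm2 they were Dnase2a (r = 0.80, rho = 0.73) and Meox1 (r = 0.78, rho = 0.83). For Cdc45 they were Ranbp3 (r = 0.78, rho = 0.79) and Tfam (r = 0.77, rho = 0.70), for Bbc3 Ciao1 (r = 0.82, rho = 0.73) and Pxmp4 (r = 0.82, rho = 0.90), and for Cdkn1b Siae (r = 0.71, rho = 0.45) and Gtf2f1 (r = 0.66, rho = 0.58).

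The implied transcript length varied between libraries in a minority of genes as much as in Ccne1. Of 512 genes, 34 had a wider spread than Ccne1 and 172 had a range under 1%, Mcm2 among them. By the exact permutation test 31 genes had a p under 0.05 between the groups and none passed after adjustment.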
